A study of Rattus norvegicus with 12 samples.

Results

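Aminoacyl-tRNA synthetases were followed at the mRNA level in cultured heart muscle cells of the newborn rat. Members were taken by gene symbol from the count table, as the synthetase named for each amino acid, and no measured value entered the rule. They number 36 of the 18469 genes in the table. Of these, 20 encode cytosolic enzymes and 16 encode mitochondrial enzymes, whose symbols end in ars2.

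RNA was sequenced from neonatal rat ventricular myocytes (NRVMs), primary heart cells grown in culture, in 12 libraries of 4 groups with 3 libraries each. All cells came from Sprague-Dawley rats and carried no named allele, and all were transfected with a small interfering RNA (siRNA). The design describes the 3 libraries of a group as independent biological replicates. The question the labels imply is how a siRNA against Slc25a26, the carrier that brings S-adenosylmethionine into mitochondria, changes the cells with and without phenylephrine (PE), an alpha-adrenergic agonist that makes cardiomyocytes grow. The group siNeg received the negative control siRNA and no PE. The group siNeg.PE received the same siRNA, followed after 12 h by PE for 36 h. The group siSlc25a26 received the siRNA against Slc25a26 and no PE. The group siSlc25a26.PE received that siRNA, followed after 12 h by PE for 36 h. Groups, siRNA and times are given as in the sample labels. The methods of the study that reported the data describe a siRNA against another gene, Nap1l5, and other times, so what the cells received rests on the labels.

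Each synthetase joins an amino acid to its tRNA, using ATP, and so supplies the ribosome with charged tRNA. Cytosolic and mitochondrial translation use separate nuclear-encoded enzymes for most amino acids, while Gars and Kars each encode both forms from a single gene, and several cytosolic enzymes sit together in the multisynthetase complex on the scaffold proteins Aimp1, Aimp2 and Eef1e1. Growth of a cardiomyocyte requires protein synthesis in the cytosol, and its mitochondria translate the respiratory chain subunits encoded by their own DNA.

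The targeted gene was examined first, in CPM (read counts scaled to library size, with TMM factors). Slc25a26 stood at 33.2, 31.6 and 29.3 CPM in siNeg, 113, 106 and 86.2 CPM in siNeg.PE, 15.8, 14.9 and 14.7 CPM in siSlc25a26 and 102, 106 and 98.8 CPM for the libraries labelled siSlc25a26.PE. Without PE all 3 siSlc25a26 libraries lay below all siNeg libraries, whereas with PE the libraries of both siRNAs overlapped. By edgeR's quasi-likelihood F-test, adjusted by Benjamini-Hochberg, Slc25a26 fell without PE (log2 fold change -1.08 ± 0.08 SE, adjusted p = 1.08e-05), while under PE the value was -0.01 ± 0.10 SE, adjusted p = 0.969. Because the targeted gene was not lower under PE, the fourth group is called the libraries labelled siSlc25a26.PE. Every direction drawn from the comparison of siSlc25a26 under PE, or of PE in siSlc25a26, rests on libraries whose label the targeted gene does not bear out. Changes given without PE or under PE compare the labelled siRNAs at that treatment, siSlc25a26 against siNeg. Changes given with PE compare the treatments within a labelled siRNA. Slc25a26 itself rose with PE in siNeg (log2 fold change 1.69 ± 0.10 SE, adjusted p = 1.79e-05, edgeR's quasi-likelihood F-test, adjusted by Benjamini-Hochberg), in 3 of 3 libraries. With PE in siSlc25a26 it rose by 2.77 ± 0.06 SE (adjusted p = 1.49e-08, edgeR's quasi-likelihood F-test, adjusted by Benjamini-Hochberg). The difference between both PE effects was 1.06 ± 0.13 SE (adjusted p = 0.000466, edgeR's quasi-likelihood F-test, adjusted by Benjamini-Hochberg). Nap1l5, a nucleosome assembly protein gene looked up after other values were seen, stood at 2.54, 3.47 and 4.72 CPM in siNeg, 13.5, 15.9 and 19.4 CPM in siNeg.PE, 1.40, 1.95 and 2.74 CPM in siSlc25a26 and 8.78, 8.18 and 6.76 CPM for the libraries labelled siSlc25a26.PE. The libraries overlapped without PE, and those labelled siSlc25a26.PE lay below all siNeg.PE libraries. Nap1l5 fell in siSlc25a26 without PE (log2 fold change -0.84 ± 0.29 SE, adjusted p = 0.0397) and under PE (-1.05 ± 0.15 SE, adjusted p = 0.000636), by edgeR's quasi-likelihood F-test, adjusted by Benjamini-Hochberg. The call without PE was lost on log2(FPKM + 1) (-0.49) and log2(FPKM + 0.1) (-0.74), and without siNeg replicate 2 (-0.87) or 3 (-0.61) or siSlc25a26 replicate 1 (-0.63) or 2 (-0.81).

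PE was checked with the hypertrophy markers Nppa and Nppb, which encode natriuretic peptides, and Acta1, the skeletal actin of the fetal gene program. Nppa stood at 129.7, 119.9 and 111 CPM in siNeg, 3173, 3408 and 2416 CPM in siNeg.PE, 331, 284 and 196 CPM in siSlc25a26 and 5953, 6330.3 and 6128 CPM for the libraries labelled siSlc25a26.PE. Nppb stood at 16.4, 13.0 and 10.4 CPM in siNeg, 656, 698 and 311 CPM in siNeg.PE, 63.5, 56.0 and 39.2 CPM in siSlc25a26 and 2052, 2182 and 2079.9 CPM for the libraries labelled siSlc25a26.PE. Acta1 stood at 288, 303 and 217 CPM in siNeg, 3211, 2586 and 1586 CPM in siNeg.PE, 256, 188 and 129 CPM in siSlc25a26 and 5806, 7072 and 7334 CPM for the libraries labelled siSlc25a26.PE. All 3 markers were higher in every library with PE than in every library with the same siRNA and no PE, with log2 fold changes in siNeg of 4.63, 5.37 and 3.18.

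The total count per library ranged from 24770972 in siNeg.PE replicate 3 to 28709049 in siSlc25a26 replicate 2. The synthetases together took 0.268% to 0.323% of these counts. The lowest member count in any library was 181 (Mars2) and the highest was 10642 (Aars), so none was near the detection floor of 3 counts. All 36 members passed the filter on low counts in every comparison. The share of the 10 most abundant genes ran from 7.23% to 7.45% in siNeg, 8.16% to 8.75% in siNeg.PE, 6.12% to 6.37% in siSlc25a26 and 9.79% to 10.001% for the libraries labelled siSlc25a26.PE.

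The labelled cell type was set against its markers. All 10 cardiomyocyte markers had counts in every library, and their summed level was 30706, 31469.5 and 32976 CPM in siNeg, 42679, 41705 and 43023 CPM in siNeg.PE, 30284, 31085 and 34673 CPM in siSlc25a26 and 50795, 46996 and 46970.1 CPM for the libraries labelled siSlc25a26.PE, with Myh7, the slow myosin heavy chain, as the most abundant. Myh7 alone stood at 9620, 9558 and 9187 CPM in siNeg and 17747, 17411 and 17513 CPM in siNeg.PE. It stood at 11348, 11685 and 12726.5 CPM in siSlc25a26 and 25485, 22808 and 22806 CPM for the libraries labelled siSlc25a26.PE. The sum thus holds a gene that was itself higher in every library with PE than without it, for each labelled siRNA. Fibroblast markers were also present, summing to 23579.7, 21438 and 21735 CPM in siNeg, 12092, 11992 and 11625 CPM in siNeg.PE, 13996, 12472 and 13075 CPM in siSlc25a26 and 8708, 8840.2 and 9476 CPM for the libraries labelled siSlc25a26.PE, with Col1a1, a collagen chain, as the most abundant. RNA of fibroblast genes was thus present at a level that differed between groups, although the study's methods name a Percoll gradient that removes fibroblasts when the myocytes are isolated. In these bulk samples, fewer cells of a type and less RNA per cell cannot be told apart.

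Cytosolic synthetase mRNAs lay above most mitochondrial ones when levels were compared per length, in FPKM (fragments scaled by gene length and library size). Sars, the seryl enzyme, was the highest in siNeg at 155 ± 9.36 FPKM (mean ± SD, n = 3), and its lowest library lay above every library of the next gene. Kars at 89.5 ± 2.54 FPKM, Gars at 87.6 ± 4.81 FPKM and Aars at 84.2 ± 5.64 FPKM, the lysyl, glycyl and alanyl enzymes, followed with overlapping libraries. Dars, the aspartyl enzyme, was the lowest cytosolic member at 12.9 ± 0.947 FPKM. The mitochondrial members Iars2, Fars2, Tars2 and Cars2, 4 in all, had means above it. Iars2 reached 24.9 ± 0.457 FPKM, beside 26.1 ± 0.880 FPKM for its cytosolic counterpart Iars. Ears2, the mitochondrial glutamyl enzyme, was the lowest at 3.24 ± 0.461 FPKM. Of the 35 neighbours in the order of means, 20 had overlapping libraries.

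**Figure D1:**
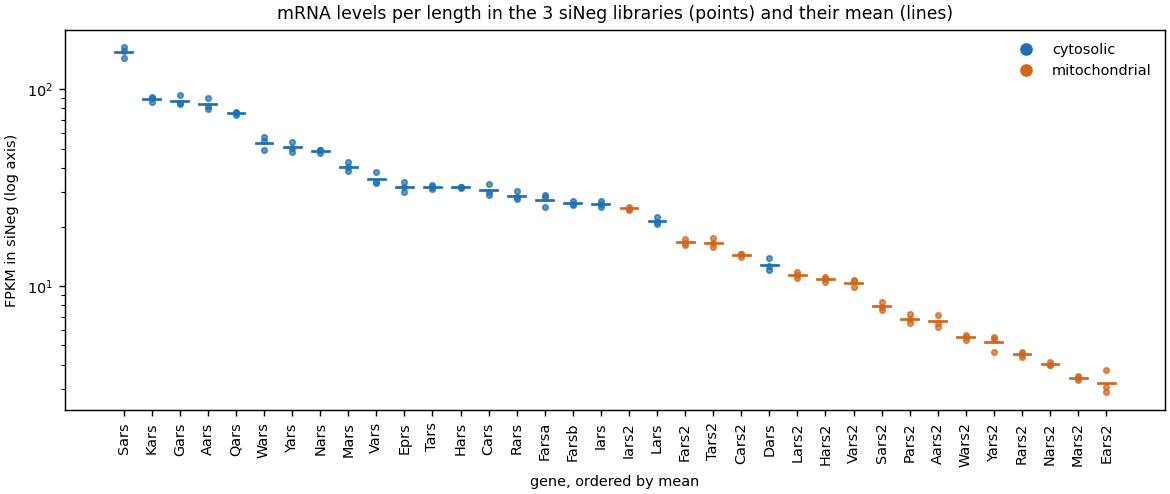
FPKM of the 36 synthetase mRNAs in siNeg on a log axis, with points for the 3 libraries, lines for the mean, and colours for cytosolic and mitochondrial enzymes. Sars lies highest at 155 FPKM and Ears2 lowest at 3.24 FPKM, and 4 mitochondrial members have means above the lowest cytosolic member, Dars.

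The summed FPKM of the 20 cytosolic members was 990.4 ± 31.5 in siNeg, 886 ± 25.8 in siNeg.PE, 1042 ± 28.0 in siSlc25a26 and 939 ± 14.2 in the libraries labelled siSlc25a26.PE (mean ± SD, n = 3). For the 16 mitochondrial members the summed FPKM was 153 ± 3.64, 152 ± 4.06, 152 ± 4.90 and 135 ± 3.60 in the same order. On the TMM-scaled CPM the cytosolic sums were 2509, 2338, 2589 and 2627, and the mitochondrial sums were 439.9, 459, 436 and 440.1. By library the mitochondrial CPM sums were 469.8, 448.9 and 458.6 in siNeg.PE and 453.2, 438.2 and 428.8 in the libraries labelled siSlc25a26.PE, with overlapping ranges.

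Promoter sequences are shown for the cytosolic members whose window holds the C/EBP-ATF response element (CARE, letters TGATGNAA), a motif bound by the stress factor ATF4, which drives synthetase genes when amino acids run short. RefSeq entries, on build GRCr8, matched 32 of 36 members by gene identifier, and no entry with a full window was found for Dars, Gars, Rars and Mars2. The deposited tables use another build, Rnor_6.0. Within 250 bases before the start, read on both strands, the CARE letters were found in 5 of 17 cytosolic promoters (29.4%), in 0 of 15 mitochondrial promoters, and in 3.3% of all 27455 promoters. The 120 bases before the start are given 5′ to 3′ on the strand of the gene, with the match in capitals, which reads TTGCATCA where it lies on the other strand. They run at chr19:55908362-55908481 (plus strand) for Aars, chr17:15193653-15193772 (minus strand) for Iars, chr7:65023754-65023873 (minus strand) for Mars, chr18:60275783-60275902 (minus strand) for Nars and chr2:62114803-62114922 (minus strand) for Tars.
Aars: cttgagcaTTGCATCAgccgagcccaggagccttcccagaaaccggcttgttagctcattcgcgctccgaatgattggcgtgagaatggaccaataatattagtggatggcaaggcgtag
Iars: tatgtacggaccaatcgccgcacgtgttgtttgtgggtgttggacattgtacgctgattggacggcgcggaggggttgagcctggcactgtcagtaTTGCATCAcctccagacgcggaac
Mars: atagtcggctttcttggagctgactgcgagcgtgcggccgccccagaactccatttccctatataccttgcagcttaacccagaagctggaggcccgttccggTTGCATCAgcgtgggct
Nars: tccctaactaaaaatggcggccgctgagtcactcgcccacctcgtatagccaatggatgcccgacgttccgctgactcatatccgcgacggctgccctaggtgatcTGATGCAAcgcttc
Tars: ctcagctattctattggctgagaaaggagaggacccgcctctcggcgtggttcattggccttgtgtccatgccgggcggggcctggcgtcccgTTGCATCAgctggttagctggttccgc

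The match began 112 bases before the start in Aars, 24 in Iars, 17 in Mars, 14 in Nars and 27 in Tars. Further letters were searched in the same windows on both strands. The E-box CACGTG was in 4 of 17 cytosolic promoters (23.5%; Aars, Farsb, Iars and Vars), in 0 of 15 mitochondrial ones and in 5.8% of all promoters. The core of the interferon-stimulated response element, AAANNGAAA, was in 0 of 17 cytosolic promoters, in 2 of 15 mitochondrial ones (13.3%; Sars2 and Wars2) and in 10.1% of all. The gamma-activated sequence TTCNNNGAA was in 3 of 17 cytosolic promoters (17.6%; Aars, Lars and Qars), in 2 of 15 mitochondrial ones (13.3%; Nars2 and Wars2) and in 7.5% of all. These matches describe letters in a window and were not tested as binding sites.

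In control cells PE moved synthetase mRNAs in both directions. Of the 36 members 8 were higher, 4 of them cytosolic and 4 mitochondrial, where 25.2% of the 13719 genes tested were higher. Another 10 were lower, 7 cytosolic and 3 mitochondrial, where 24.3% of genes tested were lower. These calls are adjusted p under 0.05 by edgeR's quasi-likelihood F-test, adjusted by Benjamini-Hochberg. Past 1.5-fold as well, 0 members were higher, where 12.4% of genes were, and 1 member, Cars2, was lower, where 8.24% of genes were. The median log2 fold change was -0.10 over cytosolic members, 0.08 over mitochondrial members and 0.00 over all genes tested, and the medians kept these signs on both FPKM scales, although the mitochondrial one was 0.02 there and the cytosolic one was -0.06 without siNeg replicate 1. Members past 1.5-fold numbered 0 without siNeg replicate 1 or siNeg.PE replicate 2, and 2 without siNeg replicate 3 or siNeg.PE replicate 1. The shares of members called lay near those of all genes, apart from the calls past 1.5-fold. In each comparison, the counts of 0 past 1.5-fold were also 0 at an unadjusted p under 0.05 in edgeR, and at an adjusted p under 0.05 in DESeq2 and in limma-voom.

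Other settings added calls for PE in siNeg. Kars (-0.16), Iars (-0.19) and Farsa (-0.22) were lower on log2(FPKM + 1), and also with the replicate block. Lars (0.14), Nars (0.13) and Iars2 (0.11) were higher with the block, while with all 12 libraries in one fit Nars (0.14), Tars (0.12), Iars2 (0.12) and Rars2 (0.26) were higher and Iars (-0.14) lower. Iars was lower as well with at least 10 counts in every library (-0.15). Farsa passed without siNeg replicate 3 (-0.25), Iars without siNeg.PE replicate 3 (-0.19) and Lars without siNeg.PE replicate 1 (0.23).

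Between siSlc25a26 and the libraries labelled siSlc25a26.PE, more members were higher than lower with PE on the TMM scale. There 13 members were higher, 9 cytosolic and 4 mitochondrial, where 26.4% of the 13776 genes tested were. Another 7 were lower, 4 cytosolic and 3 mitochondrial, where 26.0% of genes were. Past 1.5-fold, 0 members were higher, where 10.1% of genes were, and only Cars2 was lower, where 10.4% of genes were. The medians were 0.07 for cytosolic and 0.10 for mitochondrial members on this scale, but turned to -0.10 and -0.07 on log2(FPKM + 1). That scale moved the median of all genes to -0.13, and relative to it the medians were 0.03 and 0.06, against 0.08 and 0.10 on the TMM scale. The cytosolic median was 0.12 without siSlc25a26 replicate 1, and the mitochondrial one was 0.06 without siSlc25a26.PE replicate 3. On log2(FPKM + 1) 5 members were higher and 15 lower, 2 of them past 1.5-fold, and the share of higher calls among all calls was 26.3% in place of 50.3%. Members lower there and not called by edgeR on the TMM scale were Farsa (-0.20), Iars (-0.15), Mars (-0.18), Sars (-0.28), Vars (-0.16), Yars (-0.23), Aars2 (-0.34) and Pars2 (-0.35). Aars2 was also lower with at least 10 counts in every library (-0.22), with all 12 libraries in one fit (-0.22) and without siSlc25a26.PE replicate 1 (-0.28), and Mars2 was higher in the fit of 12 (0.22). The direction of this comparison rests on the libraries labelled siSlc25a26.PE.

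In siSlc25a26 without PE, 5 of 20 cytosolic members and 0 mitochondrial members were higher by edgeR. The cytosolic share lay near that of all genes, and the difference between the compartments was not tested. The 5 higher members (Kars, Iars, Aars, Dars and Rars) were all classed as cytosolic by symbol, although Kars also encodes the mitochondrial lysyl enzyme, where 23.3% of the 13829 genes tested were higher. Against these 5, 0 mitochondrial members were higher by edgeR, DESeq2 or limma-voom, and 2 were at an unadjusted p under 0.05 in edgeR. Yars2 was higher on log2(FPKM + 0.1) (0.34) and with all 12 libraries in one fit (0.32), and Tars2 in that fit (0.19) and with the replicate block (0.16). Both were also higher without siSlc25a26 replicate 3, at 0.39 and 0.21. The 7 lower members comprised 3 cytosolic (Wars, Qars and Sars) and 4 mitochondrial ones (Cars2, Mars2, Wars2 and Aars2), where 21.7% of genes were lower. Past 1.5-fold, 0 members were higher, where 8.92% of genes were, and 0 were lower, where 7.20% of genes were. Medians were 0.01 for cytosolic members, -0.01 for mitochondrial members and 0.01 for all genes; on log2(FPKM + 1) the mitochondrial median turned to 0.04, beside 0.05 for all genes, and with DESeq2 size factors the cytosolic one turned to -0.00. With a library left out both lay from -0.04 to 0.02, the cytosolic median turning below 0 without siNeg replicate 2 or 3, and the mitochondrial one above 0 without siNeg replicate 1 or siSlc25a26 replicate 1 or 3. The lower members numbered 4 without siNeg replicate 1 or 2 or siSlc25a26 replicate 2 or 3.

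Under PE the higher calls by edgeR were cytosolic as well, and the difference between the compartments was not tested. In the libraries labelled siSlc25a26.PE, 10 members were higher than in siNeg.PE and all 10, Kars included, were classed as cytosolic, where 20.1% of the 13671 genes tested were higher. Against these 10, 0 mitochondrial members were higher by edgeR or DESeq2 and 1 by limma-voom, and 2 were at an unadjusted p under 0.05 in edgeR. Another 5 were lower, 2 cytosolic (Qars and Wars) and 3 mitochondrial (Cars2, Pars2 and Hars2), where 20.1% of genes were lower. Past 1.5-fold, 0 members were higher, where 7.71% of genes were, and only Cars2 was lower, where 8.10% of genes were. The log2 fold change was above 0 for 17 of 20 cytosolic members and below 0 for 10 of 16 mitochondrial members. Medians were 0.17 and -0.12, beside -0.00 over all genes, and on log2(FPKM + 1) they were 0.10 and -0.17. On that scale 6 members, all cytosolic, were higher and 9 were lower, 2 cytosolic and 7 mitochondrial, and the share of higher calls among all genes called was 38.3% in place of 50.0%. The mitochondrial Rars2 was higher as well with DESeq2 size factors in edgeR (0.28), in limma-voom (0.28), with the replicate block (0.28) and with all 12 libraries in one fit (0.29). Aars2 (-0.26), Mars2 (-0.26), Nars2 (-0.31) and Wars2 (-0.27) were lower on log2(FPKM + 1) without being called on the TMM scale. With the replicate block Gars (0.14), Nars (0.13), Tars (0.15) and Yars (0.16) were higher and Aars2 (-0.24) lower, and with all 12 libraries in one fit the values of these 5 were 0.15, 0.14, 0.16, 0.17 and -0.23, each passing, and Mars2 was lower (-0.24). Without siSlc25a26.PE replicate 3 Gars (0.18) and Yars (0.21) passed, and without siSlc25a26.PE replicate 1 Aars2 did (-0.30). Leaving out siNeg.PE replicate 2 reduced the members called to 8, and leaving out siNeg.PE replicate 3 to 9. The higher members numbered 5 without siNeg.PE replicate 2 or replicate 3, and 6 without siSlc25a26.PE replicate 1 or 2, and the lower members numbered 3 without siNeg.PE replicate 2. The mitochondrial median was -0.07 without siSlc25a26.PE replicate 3.

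**Figure D2:**
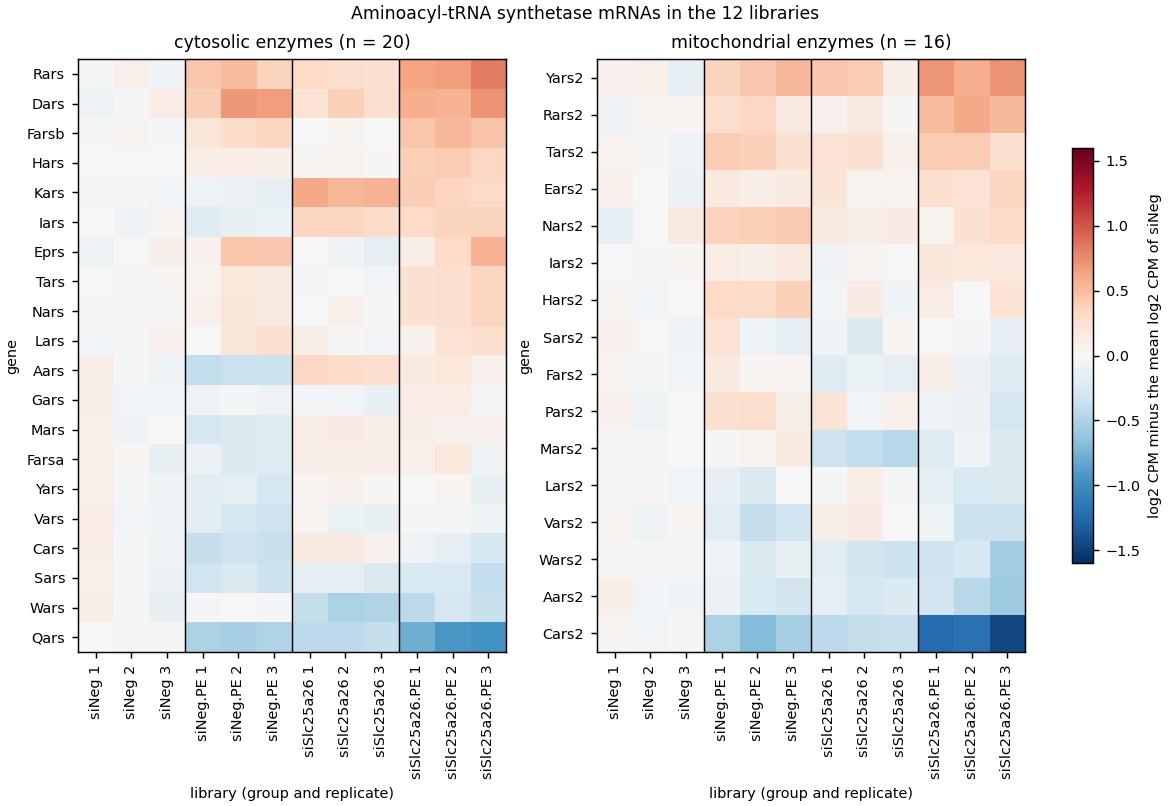
Log2 CPM of each synthetase minus its mean in siNeg, by library, for the 20 cytosolic and 16 mitochondrial enzymes on a colour scale from blue (lower) to red (higher). Cars2 and Qars are lowest in the libraries labelled siSlc25a26.PE, and Kars, Iars and Aars are higher in siSlc25a26 than in siNeg.

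The difference between both PE effects was tested with all 12 libraries. Here 1 member, Hars, was higher, where 5.48% of the 14097 genes tested were, and 1 member, Pars2, was lower, where 5.73% of genes were. Past 1.5-fold, 0 members were higher, where 2.16% of genes were, and 0 were lower, where 3.34% of genes were. Medians of the difference were 0.13 for cytosolic, -0.02 for mitochondrial and -0.05 for all genes; the mitochondrial median turned to 0.00 with DESeq2 size factors, and lay from -0.09 to 0.03 with a library left out, above 0 without siNeg replicate 2 or 3, siNeg.PE replicate 1 or siSlc25a26.PE replicate 3. Members passing numbered 4 with DESeq2 size factors, 6 in DESeq2 and 0 without the filter. On log2(FPKM + 1) the median of all genes moved to -0.11 and the share of higher calls from 48.9% to 24.1%, with 0 members higher and 5 lower, which were Pars2, Kars (-0.21), Cars2 (-0.39), Hars2 (-0.32) and Nars2 (-0.40). Gars (0.25), Mars (0.23) and Vars (0.31) were higher with DESeq2 size factors and in DESeq2, and Tars (0.22) in DESeq2. With the replicate block Gars (0.22) and Vars (0.28) were higher, and Vars passed without siNeg replicate 3 (0.32), siNeg.PE replicate 1 (0.32) or siSlc25a26 replicate 1 (0.34). Relative to all genes, the cytosolic median was 0.18 on the TMM scale and 0.13 on log2(FPKM + 1). The comparisons share libraries with each other, such as siNeg in PE in siNeg and in siSlc25a26 without PE, so their values stand side by side and were not related to each other.

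**Figure D3:**
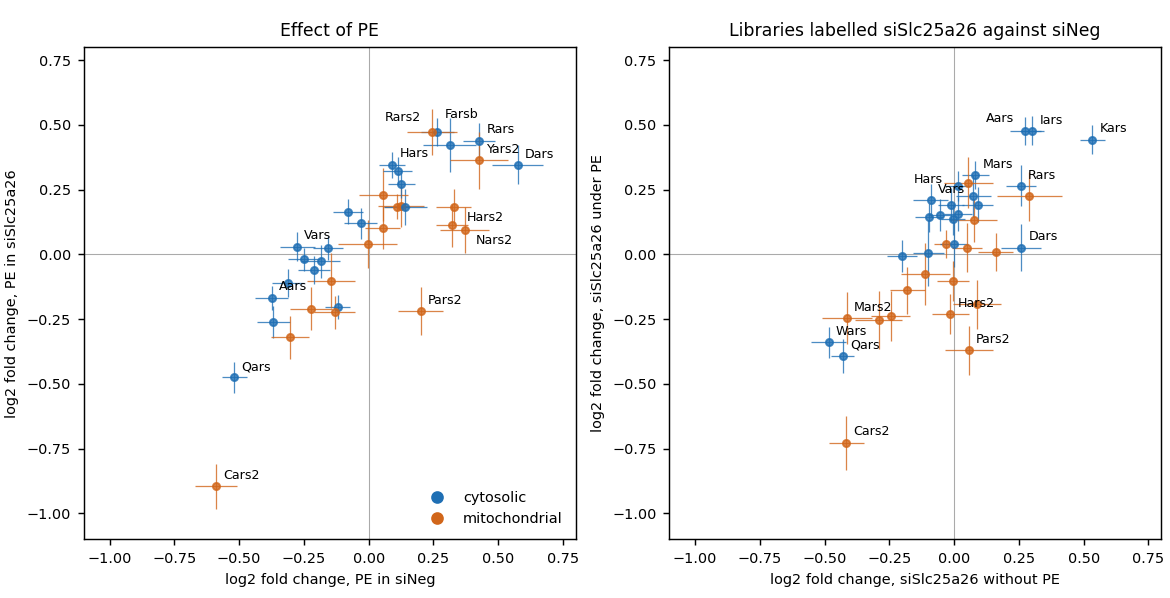
Log2 fold changes of the 36 synthetases with standard errors as bars, for PE in siNeg against PE in siSlc25a26 (left) and for siSlc25a26 without PE against siSlc25a26 under PE (right). Cars2 lies lowest on both vertical axes, at -0.89 and -0.73, and on the right 17 of 20 cytosolic enzymes lie above 0 on the vertical axis.

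Within the multisynthetase complex the enzymes did not move together. Qars, the glutaminyl enzyme of the complex, stood at 198, 201 and 196 CPM in siNeg, 140.0, 137 and 142 CPM in siNeg.PE, 148, 148 and 153 CPM in siSlc25a26 and 116, 104 and 101 CPM for the libraries labelled siSlc25a26.PE. Every library of the other groups lay below every siNeg library, and those labelled siSlc25a26.PE were the lowest. By edgeR's quasi-likelihood F-test, adjusted by Benjamini-Hochberg, Qars fell with PE in siNeg (log2 fold change -0.52 ± 0.05 SE, adjusted p = 0.00012) and in siSlc25a26 (-0.48 ± 0.06 SE, adjusted p = 0.000169), and in siSlc25a26 without PE (-0.43 ± 0.05 SE, adjusted p = 0.000103) and under PE (-0.39 ± 0.06 SE, adjusted p = 0.0015).

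Rars, the arginyl enzyme, went the other way, at 56.2, 60.2 and 54.8 CPM in siNeg, 77.9, 81.2 and 72.9 CPM in siNeg.PE, 71.3, 69.4 and 67.7 CPM in siSlc25a26 and 88.1, 90.5 and 102 CPM for the libraries labelled siSlc25a26.PE. The siNeg libraries were the lowest and those labelled siSlc25a26.PE the highest, with no overlap between the groups compared. Rars rose in each comparison by edgeR's quasi-likelihood F-test, adjusted by Benjamini-Hochberg, with log2 fold changes of 0.43 ± 0.06 SE, adjusted p = 0.00108 (PE in siNeg), 0.44 ± 0.07 SE, adjusted p = 0.000616 (PE in siSlc25a26), 0.26 ± 0.06 SE, adjusted p = 0.00622 (siSlc25a26 without PE) and 0.26 ± 0.08 SE, adjusted p = 0.0269 (under PE). The call under PE was lost on both FPKM scales, at 0.19, and without siNeg.PE replicate 2 (0.29) or replicate 3 (0.20), and the value with PE in siSlc25a26 was 0.25 on log2(FPKM + 1).

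Dars, the aspartyl enzyme, stood at 24.5, 25.5 and 28.3 CPM in siNeg, 34.1, 42.0 and 41.4 CPM in siNeg.PE, 30.2, 33.8 and 31.3 CPM in siSlc25a26 and 38.9, 38.4 and 43.0 CPM for the libraries labelled siSlc25a26.PE. All libraries with PE lay above all libraries with the same siRNA and no PE. Dars rose with PE in siNeg (log2 fold change 0.57 ± 0.10 SE, adjusted p = 0.0022) and in siSlc25a26 (0.35 ± 0.07 SE, adjusted p = 0.00407), and in siSlc25a26 without PE (0.26 ± 0.08 SE, adjusted p = 0.0235), by edgeR's quasi-likelihood F-test, adjusted by Benjamini-Hochberg. The second call was lost on log2(FPKM + 1), at 0.16, and on log2(FPKM + 0.1), at 0.17, and the last without siNeg replicate 1 (0.21 log2), siNeg replicate 2 (0.23) or siSlc25a26 replicate 2 (0.22).

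Eprs, which joins glutamyl and prolyl activities in 1 protein, stood at 142, 149 and 159.8 CPM in siNeg, 158, 203 and 203 CPM in siNeg.PE, 149.9, 143 and 135 CPM in siSlc25a26 and 161, 188 and 220.5 CPM for the libraries labelled siSlc25a26.PE. With PE in siNeg the ranges overlapped, since siNeg.PE replicate 1 lay below siNeg replicate 3. Eprs rose with PE in siNeg (log2 fold change 0.31 ± 0.10 SE, adjusted p = 0.0342) and in siSlc25a26 (0.42 ± 0.10 SE, adjusted p = 0.00827) by edgeR's quasi-likelihood F-test, adjusted by Benjamini-Hochberg. On log2(FPKM + 1) both calls were lost, at 0.25 and 0.23, and on log2(FPKM + 0.1) at 0.26 and 0.24. The first was also lost without siNeg replicate 1 (0.28) or 2 (0.31), or siNeg.PE replicate 2 (0.26) or 3 (0.25).

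Kars, Iars and Mars, the lysyl, isoleucyl and methionyl enzymes of the complex, were higher in the libraries labelled siSlc25a26.PE than in siNeg.PE, and Kars and Iars were also higher without PE. Kars stood at 175, 176 and 168 CPM in siNeg, 164, 162 and 157 CPM in siNeg.PE, 262, 249 and 254 CPM in siSlc25a26 and 227, 219 and 214 CPM for the libraries labelled siSlc25a26.PE. Iars stood at 113, 108 and 116 CPM in siNeg, 97.4, 103 and 105 CPM in siNeg.PE, 142, 143 and 138 CPM in siSlc25a26 and 140.0, 144 and 143 CPM for the libraries labelled siSlc25a26.PE. The siSlc25a26 libraries of Kars and Iars lay above all siNeg libraries, and those labelled siSlc25a26.PE above all siNeg.PE libraries. Mars stood at 114, 102 and 107 CPM in siNeg, 89.0, 91.1 and 93.5 CPM in siNeg.PE, 115, 117 and 115 CPM in siSlc25a26 and 115, 113 and 113 CPM for the libraries labelled siSlc25a26.PE. With PE in siNeg all Mars libraries were lower than without it, while those labelled siSlc25a26.PE overlapped siNeg. By edgeR's quasi-likelihood F-test, adjusted by Benjamini-Hochberg, Kars rose without PE (log2 fold change 0.53 ± 0.05 SE, adjusted p = 4.24e-05) and under PE (0.44 ± 0.06 SE, adjusted p = 0.000361), and fell with PE in siSlc25a26 (-0.20 ± 0.05 SE, adjusted p = 0.00561), where the value was -0.37 on both FPKM scales. Iars rose by 0.30 and 0.48 on the log2 scale in the same comparisons (adjusted p = 0.000863 and 0.000234, edgeR's quasi-likelihood F-test, adjusted by Benjamini-Hochberg). Mars fell with PE in siNeg (log2 fold change -0.25 ± 0.06 SE, adjusted p = 0.0099) and was higher in the libraries labelled siSlc25a26.PE than in siNeg.PE (0.31 ± 0.05 SE, adjusted p = 0.00216), by edgeR's quasi-likelihood F-test, adjusted by Benjamini-Hochberg. With PE in siSlc25a26 the value of Mars was -0.02, without passing.

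Lars, the leucyl enzyme of the complex, rose with PE in siSlc25a26 (log2 fold change 0.18 ± 0.07 SE, adjusted p = 0.0488, edgeR's quasi-likelihood F-test, adjusted by Benjamini-Hochberg), with overlapping libraries. In siNeg the value was 0.14, and the difference was 0.02 with adjusted p = 0.932 by edgeR. The call was lost on both FPKM scales, at 0.0062 and 0.0063, in limma-voom, with either other filter, with the replicate block, with all 12 libraries in one fit, and without any 1 of 5 libraries (0.14 to 0.21), all but siSlc25a26.PE replicate 1. Of the 3 scaffold genes, 1 rose with PE in siNeg, 2 with PE in siSlc25a26, 0 passed in siSlc25a26 without PE, and 1 rose under PE. The shares of all genes tested that were higher were 25.2%, 26.4%, 23.3% and 20.1% in that order. Aimp1 had log2 fold changes of 0.45 and 0.51 with PE in siNeg and siSlc25a26, Aimp2 had 0.29 with PE in siSlc25a26, and Eef1e1 had 0.42 under PE. No scaffold gene passed in the difference of PE effects.

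**Figure D4:**
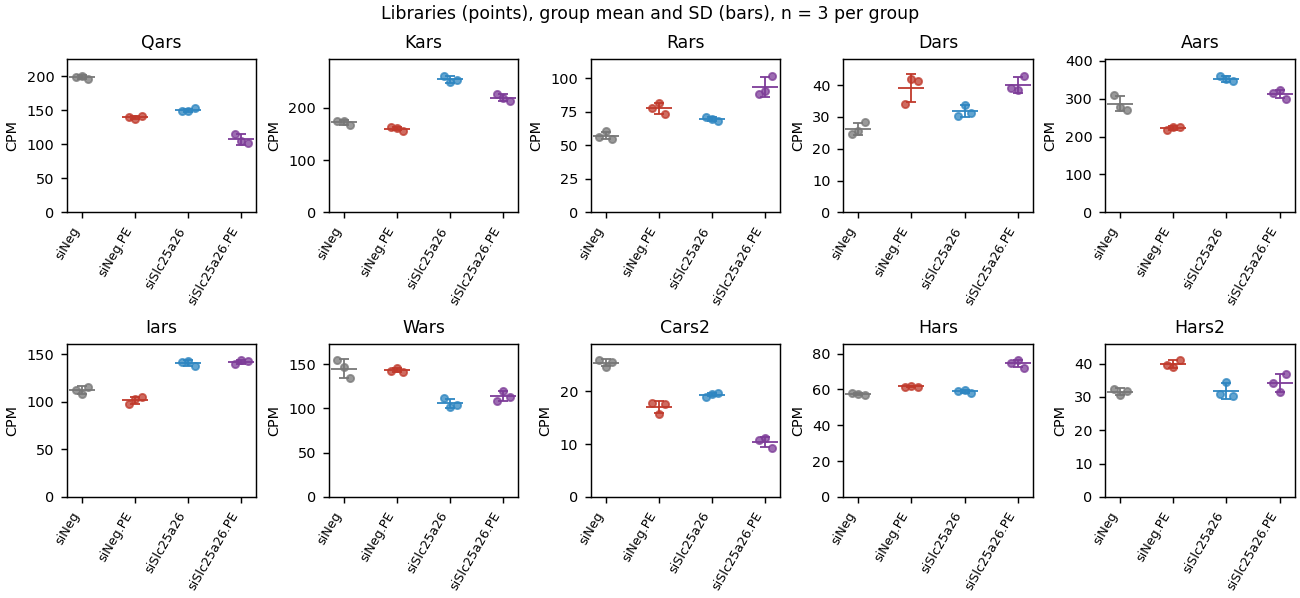
CPM of 10 synthetases in each group, with points for the libraries and bars for the mean and SD (n = 3). Qars falls from 198 to 107 CPM and Cars2 from 25.4 to 10.4 CPM between the means of siNeg and the libraries labelled siSlc25a26.PE, and Kars, Aars and Iars are higher in siSlc25a26 than in siNeg.

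Among the cytosolic enzymes outside the complex, Aars, the alanyl enzyme, was lower with PE, and higher in siSlc25a26 than in siNeg. Aars stood at 309, 279 and 271 CPM in siNeg, 218, 226 and 226 CPM in siNeg.PE, 362, 352 and 346 CPM in siSlc25a26 and 315, 322 and 300.3 CPM for the libraries labelled siSlc25a26.PE. The siNeg.PE libraries were the lowest and the siSlc25a26 libraries the highest. By edgeR's quasi-likelihood F-test, adjusted by Benjamini-Hochberg, Aars fell with PE in siNeg (log2 fold change -0.37 ± 0.06 SE, adjusted p = 0.00206) and in siSlc25a26 (-0.17 ± 0.05 SE, adjusted p = 0.0144), and rose in siSlc25a26 without PE (0.28 ± 0.06 SE, adjusted p = 0.0053) and under PE (0.48 ± 0.05 SE, adjusted p = 0.000209). On both FPKM scales Aars was at -0.35 with PE in siSlc25a26, and that call was lost without siSlc25a26 replicate 1, at -0.15.

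Cars, the cysteinyl enzyme, stood at 94.7, 86.2 and 83.8 CPM in siNeg, 67.8, 70.3 and 68.8 CPM in siNeg.PE, 97.3, 97.6 and 92.1 CPM in siSlc25a26 and 84.9, 79.6 and 73.3 CPM for the libraries labelled siSlc25a26.PE. Both groups with PE lay below their counterparts without PE. Cars fell with PE in siNeg (log2 fold change -0.37 ± 0.06 SE, adjusted p = 0.00228) and in siSlc25a26 (-0.26 ± 0.06 SE, adjusted p = 0.00651), and was higher in the libraries labelled siSlc25a26.PE than in siNeg.PE (0.19 ± 0.07 SE, adjusted p = 0.0486), by edgeR's quasi-likelihood F-test, adjusted by Benjamini-Hochberg. The last call was lost with DESeq2 size factors (0.20), in DESeq2 (0.20), without the filter (0.19), with at least 10 counts in every library (0.17), on both FPKM scales (0.11), and without any 1 library (0.14 to 0.20) but siSlc25a26.PE replicate 3. Cars was at -0.43 on log2(FPKM + 1) with PE in siSlc25a26.

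Farsb, the beta subunit of the phenylalanyl enzyme, stood at 52.3, 54.8 and 52.8 CPM in siNeg, 60.9, 65.2 and 67.7 CPM in siNeg.PE, 53.0, 55.1 and 53.4 CPM in siSlc25a26 and 72.2, 77.0 and 73.3 CPM for the libraries labelled siSlc25a26.PE. The libraries labelled siSlc25a26.PE were the highest. Farsb rose with PE in siNeg (log2 fold change 0.27 ± 0.06 SE, adjusted p = 0.00997), with PE in siSlc25a26 (0.47 ± 0.05 SE, adjusted p = 9.87e-05) and under PE (0.19 ± 0.06 SE, adjusted p = 0.0408), by edgeR's quasi-likelihood F-test, adjusted by Benjamini-Hochberg. The last call was lost without the filter (0.19), with at least 10 counts in every library (0.17), on both FPKM scales (0.12) and without any 1 of the 6 libraries (0.16 to 0.21), and the value with PE in siSlc25a26 was 0.29 on log2(FPKM + 1). Farsa, the alpha subunit of the same enzyme, passed under PE, at a log2 fold change of 0.23. That call was lost in DESeq2 and limma-voom, with either other filter, on log2(FPKM + 1) (0.15), and without siNeg.PE replicate 2 (0.20) or 3 (0.19) or siSlc25a26.PE replicate 1 (0.22) or 2 (0.18).

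Other cytosolic members passed as follows. Sars fell with PE in siNeg (-0.31 log2) and without PE under the siRNA (-0.20), the second call being lost on both FPKM scales (-0.14) and without siNeg replicate 1 (-0.17) or 2 (-0.20) or siSlc25a26 replicate 2 (-0.21) or 3 (-0.18). Yars, the tyrosyl enzyme, fell with PE in siNeg (-0.21). Vars, the valyl enzyme, fell there (-0.28) and was higher in the libraries labelled siSlc25a26.PE than in siNeg.PE (0.21). The call of Yars was lost without any 1 library (-0.22 to -0.15) but siNeg replicate 3. For Vars the first call was lost without siNeg.PE replicate 2 (-0.26), and the second without that library (0.19), siNeg.PE replicate 3 (0.16), or siSlc25a26.PE replicate 1 (0.20) or 2 (0.21). With PE in siSlc25a26, Tars (0.32), Nars (0.27) and Gars (0.16), the threonyl, asparaginyl and glycyl enzymes, rose in log2. On log2(FPKM + 1) Tars was at 0.14, while the calls of Nars (0.10) and Gars, which turned to -0.01, were lost. Gars was also lost without siSlc25a26 replicate 3 (0.14) or siSlc25a26.PE replicate 2 (0.15).

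The 5 cytosolic members with a CARE match were set beside the 12 without, as groups chosen after their values were seen. In siSlc25a26 under PE, 3 of 5 were higher and 0 lower, against 6 higher and 2 lower of 12, with medians of 0.31 and 0.17, where 20.1% of all genes tested were higher and 20.1% lower. With PE in siNeg, 0 of 5 were higher and 2 lower, against 2 higher and 5 lower of 12, with medians of -0.16 and -0.15, beside 25.2% and 24.3% of genes. With PE in siSlc25a26, 2 of 5 were higher and 1 lower, against 4 and 3 of 12, with medians of 0.025 and 0.0012, beside 26.4% and 26.0%. In siSlc25a26 without PE, 2 of 5 were higher and 0 lower, against 1 and 3 of 12, with medians of 0.082 and -0.0052, beside 23.3% and 21.7%. In the list of 23 ATF4 targets and stress response genes, 3 rose and 16 fell with PE in siNeg, at a median of -0.44.

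In that ATF4 list, Stc2, a secreted glycoprotein, had the lowest log2 fold change with PE in siNeg (-0.98), followed by Phgdh, the first enzyme of serine synthesis (-0.72). Slc7a11, the cystine transporter (1.00), and Atf3 (0.40) rose there. With PE in siSlc25a26 4 rose and 11 fell, led by Atf3 (0.75) and Slc7a11 (0.71) upward and Stc2 (-1.12) and Chac1 (-0.76) downward. In siSlc25a26 without PE 4 rose and 8 fell, led by Atf3 (1.33) and Ddit3 (0.74) upward and Pycr1 (-0.75) and Phgdh (-0.58) downward. Under PE 5 rose and 6 fell, led by Atf3 (1.67) and Ddit3 (0.76) upward and Slc7a11 (-0.62) and Atf5 (-0.48) downward. In the difference of PE effects Pycr1 was higher (0.66) and Psat1 lower (-0.36). Of all genes tested, 26.4% rose and 26.0% fell with PE in siSlc25a26, 23.3% and 21.7% without PE, and 20.1% and 20.1% under PE. In the difference 5.48% were higher and 5.73% lower. The counts under PE and in the difference lay near these shares. The list medians were -0.35, -0.15, -0.056 and 0.064 in the same order.

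Wars, the tryptophanyl enzyme, is known as an interferon-inducible gene. Wars stood at 154, 146 and 134 CPM in siNeg, 143, 145 and 141 CPM in siNeg.PE, 111, 102 and 103 CPM in siSlc25a26 and 108, 119.98 and 113 CPM for the libraries labelled siSlc25a26.PE. The siSlc25a26 libraries lay below all siNeg libraries, and those labelled siSlc25a26.PE below all siNeg.PE libraries. By edgeR's quasi-likelihood F-test, adjusted by Benjamini-Hochberg, Wars fell without PE (log2 fold change -0.48 ± 0.07 SE, adjusted p = 0.00051) and under PE (-0.34 ± 0.06 SE, adjusted p = 0.00226). The PE values were -0.03 in siNeg and 0.12 in siSlc25a26, where the libraries overlapped and the test was not passed; without siSlc25a26.PE replicate 1 the second value passed, at 0.16.

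The interferon-stimulated genes themselves moved far in the opposite direction. All 22 rose in siSlc25a26 without PE and all 22 under PE, where 23.3% and 20.1% of all genes did, with medians of 4.64 and 4.42 on the log2 scale. Their summed level was 736, 782 and 683 CPM in siNeg, 620.0, 588 and 564 CPM in siNeg.PE, 13584, 12624 and 13099.9 CPM in siSlc25a26 and 8636, 8645 and 7898 CPM for the libraries labelled siSlc25a26.PE. Mx1, an antiviral GTPase, and Ifit3 had the largest log2 fold changes without PE, at 8.44 and 8.20, and 7.06 and 7.08 under PE. With PE in siNeg 1 rose (Ifih1, 0.77) and 11 fell, where 25.2% and 24.3% of all genes did. Irf7 (-1.26) and Psmb8 (-0.89) led downward there. With PE in siSlc25a26 21 fell, led by Rsad2 (-1.35) and Irf1 (-1.23), where 26.0% of all genes fell. In the difference of PE effects 11 were lower, led by Mx1 (-1.39) and Ifit3 (-1.13), where 5.73% of all genes were. The part of these genes in the synthetase results was not tested.

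Among the mitochondrial enzymes, Cars2, the cysteinyl enzyme, had the lowest fitted change in each comparison of PE and in siSlc25a26 under PE. Cars2 stood at 25.9, 24.7 and 25.6 CPM in siNeg, 17.8, 15.7 and 17.6 CPM in siNeg.PE, 19.0, 19.6 and 19.6 CPM in siSlc25a26 and 10.8, 11.1 and 9.24 CPM for the libraries labelled siSlc25a26.PE. No libraries of the groups compared overlapped, and those labelled siSlc25a26.PE were the lowest. By edgeR's quasi-likelihood F-test, adjusted by Benjamini-Hochberg, Cars2 fell with PE in siNeg (log2 fold change -0.59 ± 0.08 SE, adjusted p = 0.000697), with PE in siSlc25a26 (-0.89 ± 0.09 SE, adjusted p = 3.97e-05), without PE under the siRNA (-0.42 ± 0.07 SE, adjusted p = 0.00122) and under PE (-0.73 ± 0.10 SE, adjusted p = 0.000715). The same changes were 1.505-fold, 1.86-fold, 1.33-fold and 1.66-fold lower. The call past 1.5-fold with PE in siNeg was lost with DESeq2 size factors, in DESeq2, on log2(FPKM + 1), and without siNeg replicate 1 (-0.56 log2) or siNeg.PE replicate 2 (-0.52).

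Yars2, the mitochondrial tyrosyl enzyme, stood at 7.86, 7.97 and 6.75 CPM in siNeg, 9.63, 10.1 and 10.8 CPM in siNeg.PE, 10.1, 9.99 and 8.03 CPM in siSlc25a26 and 12.3, 11.3 and 12.4 CPM for the libraries labelled siSlc25a26.PE. The groups with PE lay above those without PE for each siRNA. Yars2 rose with PE in siNeg (log2 fold change 0.43 ± 0.11 SE, adjusted p = 0.0143) and in siSlc25a26 (0.36 ± 0.11 SE, adjusted p = 0.0217), by edgeR's quasi-likelihood F-test, adjusted by Benjamini-Hochberg. The second call was lost on log2(FPKM + 1), at 0.17, on log2(FPKM + 0.1), at 0.19, and without siSlc25a26 replicate 3, at 0.26.

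Rars2 and Nars2 are the mitochondrial arginyl and asparaginyl enzymes. Rars2 stood at 7.57, 8.08 and 8.04 CPM in siNeg, 9.63, 9.95 and 8.74 CPM in siNeg.PE, 8.31, 8.73 and 8.03 CPM in siSlc25a26 and 11.2, 12.0 and 11.4 CPM for the libraries labelled siSlc25a26.PE. For Rars2 all libraries labelled siSlc25a26.PE lay above all libraries of the other groups. Nars2 stood at 12.3, 13.7 and 15.1 CPM in siNeg, 17.6, 17.8 and 18.2 CPM in siNeg.PE, 15.1, 14.6 and 14.9 CPM in siSlc25a26 and 14.2, 16.1 and 16.9 CPM for the libraries labelled siSlc25a26.PE. For Nars2 all siNeg.PE libraries lay above all siNeg libraries, while those of siSlc25a26 and those labelled siSlc25a26.PE overlapped. Rars2 rose with PE in siSlc25a26 (log2 fold change 0.47 ± 0.09 SE, adjusted p = 0.00187) and Nars2 with PE in siNeg (0.37 ± 0.10 SE, adjusted p = 0.0128), by edgeR's quasi-likelihood F-test, adjusted by Benjamini-Hochberg. The value of Rars2 was 0.24 on log2(FPKM + 1), where it passed. The difference between the labelled siRNAs did not pass for Rars2 (adjusted p = 0.303) or Nars2 (log2 difference -0.30, adjusted p = 0.151) by edgeR's quasi-likelihood F-test, adjusted by Benjamini-Hochberg, but for Nars2 it passed on log2(FPKM + 1), at -0.40, and on log2(FPKM + 0.1), at -0.47. Under PE Nars2 was lower on the same scales, at -0.31 and -0.37.

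Vars2 and Mars2, the mitochondrial valyl and methionyl enzymes, were among the falling members. Vars2 stood at 42.7, 39.5 and 43.0 CPM in siNeg, 36.8, 32.0 and 33.6 CPM in siNeg.PE, 44.4, 45.6 and 41.9 CPM in siSlc25a26 and 39.5, 32.8 and 32.7 CPM for the libraries labelled siSlc25a26.PE. With PE every library was lower than without it, for both siRNAs. Vars2 fell with PE in siNeg (log2 fold change -0.30 ± 0.07 SE, adjusted p = 0.00937) and in siSlc25a26 (-0.32 ± 0.08 SE, adjusted p = 0.0105) by edgeR's quasi-likelihood F-test, adjusted by Benjamini-Hochberg, and the second call was lost without siSlc25a26.PE replicate 2, at a log2 fold change of -0.27, and was kept on log2(FPKM + 0.1), at -0.51. Mars2 stood at 8.41, 8.66 and 8.52 CPM in siNeg, 8.64, 8.79 and 9.42 CPM in siNeg.PE, 6.78, 6.48 and 6.29 CPM in siSlc25a26 and 7.37, 8.07 and 7.34 CPM for the libraries labelled siSlc25a26.PE. The siSlc25a26 libraries without PE were the lowest. Mars2 fell in siSlc25a26 without PE (log2 fold change -0.41 ± 0.10 SE, adjusted p = 0.00777, edgeR's quasi-likelihood F-test, adjusted by Benjamini-Hochberg).

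Wars2, the mitochondrial tryptophanyl enzyme, stood at 11.4, 11.4 and 10.99 CPM in siNeg, 10.8, 9.60 and 10.4 CPM in siNeg.PE, 9.98, 9.19 and 8.89 CPM in siSlc25a26 and 8.93, 9.42 and 7.65 CPM for the libraries labelled siSlc25a26.PE. The siSlc25a26 libraries lay below all siNeg libraries. Wars2 fell without PE (log2 fold change -0.29 ± 0.09 SE, adjusted p = 0.0273, edgeR's quasi-likelihood F-test, adjusted by Benjamini-Hochberg), a call that DESeq2 did not make and that was lost without siNeg replicate 1 (-0.28 log2), siNeg replicate 2 (-0.29), siSlc25a26 replicate 2 (-0.28) or siSlc25a26 replicate 3 (-0.26). Under PE the log2 fold change was -0.25, without passing, but it passed on log2(FPKM + 1) at -0.27 and on log2(FPKM + 0.1) at -0.33. Aars2, the mitochondrial alanyl enzyme, fell with PE in siNeg (-0.22 log2) and in siSlc25a26 without PE (-0.24). The first call was lost with DESeq2 size factors (-0.22), in DESeq2 (-0.22), with either other filter, and without any 1 library (-0.25 to -0.16) but siNeg.PE replicate 1. The second was lost on log2(FPKM + 1) (-0.17) and log2(FPKM + 0.1) (-0.19), and without siNeg replicate 1 (-0.20) or 2 (-0.28) or siSlc25a26 replicate 2 (-0.22) or 3 (-0.24). Aars2 was also lower on log2(FPKM + 1) and log2(FPKM + 0.1) with PE in siSlc25a26 (-0.34 and -0.40) and under PE (-0.26 and -0.31), where edgeR gave -0.21 and -0.24 without passing.

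Lars2, the mitochondrial leucyl enzyme, fell with PE in siSlc25a26 (-0.22 log2). On log2(FPKM + 1) its value was -0.37, and the call was lost without siSlc25a26 replicate 2 (-0.18) or siSlc25a26.PE replicate 2 (-0.20). Iars2, the isoleucyl enzyme, rose there (0.18), a call lost on both FPKM scales, at 0.0058 and 0.0060, and without siSlc25a26 replicate 1, at 0.15. Tars2, the threonyl enzyme, rose with PE in siNeg (0.33) and in siSlc25a26 (0.18), the second value turning to -0.02 on both FPKM scales. That call was also lost without the filter (0.19), with at least 10 counts in every library (0.17), with the replicate block (0.18), with all 12 libraries in one fit (0.17), and without any 1 library (0.13 to 0.21) but siSlc25a26.PE replicate 3. Ears2, Fars2 and Sars2 passed in no comparison by edgeR, although Fars2 was lower in siSlc25a26 without PE with DESeq2 size factors (-0.19), in limma-voom (-0.18) and without siNeg replicate 3 (-0.23).

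Pars2, the mitochondrial prolyl enzyme, was the only member called by edgeR on the TMM scale with a lower PE effect in siSlc25a26 than in siNeg. Pars2 stood at 15.8, 14.2 and 15.1 CPM in siNeg, 17.9, 18.3 and 16.1 CPM in siNeg.PE, 17.3, 14.5 and 15.9 CPM in siSlc25a26 and 14.2, 14.1 and 12.4 CPM for the libraries labelled siSlc25a26.PE. All siNeg.PE libraries lay above all siNeg libraries, and those labelled siSlc25a26.PE below all siSlc25a26 libraries. The difference of PE effects passed edgeR's quasi-likelihood F-test, adjusted by Benjamini-Hochberg (log2 difference -0.44 ± 0.13 SE, adjusted p = 0.0441), although neither PE effect did, at 0.20 in siNeg and -0.22 in siSlc25a26. The second passed on log2(FPKM + 1), at -0.35, and on log2(FPKM + 0.1), at -0.40. Pars2 was lower in the libraries labelled siSlc25a26.PE than in siNeg.PE (log2 fold change -0.37 ± 0.10 SE, adjusted p = 0.0139, edgeR's quasi-likelihood F-test, adjusted by Benjamini-Hochberg), a call lost without siNeg.PE replicate 2 (-0.34). The call of the difference was kept without siNeg.PE replicate 3, siSlc25a26.PE replicate 1 or siSlc25a26 replicate 2, and was lost without each of the other 9 libraries, with values from -0.48 to -0.37. It was also lost with DESeq2 size factors (-0.42) and without the filter (-0.44).

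Hars and Hars2, the cytosolic and mitochondrial histidyl enzymes, are neighbours transcribed in opposite directions, and Hars2 was described after its values were seen. Hars stood at 58.0, 57.4 and 57.1 CPM in siNeg, 61.6, 62.2 and 61.4 CPM in siNeg.PE, 59.3, 59.9 and 58.1 CPM in siSlc25a26 and 75.05, 76.4 and 72.3 CPM for the libraries labelled siSlc25a26.PE. Hars2 stood at 32.5, 30.5 and 31.8 CPM in siNeg, 39.6, 39.0 and 41.1 CPM in siNeg.PE, 30.8, 34.6 and 30.3 CPM in siSlc25a26 and 34.2, 31.6 and 36.8 CPM for the libraries labelled siSlc25a26.PE. For Hars the libraries labelled siSlc25a26.PE lay above all others, while for Hars2 the siNeg.PE libraries did. Hars rose with PE in siSlc25a26 (log2 fold change 0.35 ± 0.05 SE, adjusted p = 0.000453) and under PE (0.26 ± 0.06 SE, adjusted p = 0.00706), and its difference of PE effects was 0.23 ± 0.06 SE, adjusted p = 0.0346, by edgeR's quasi-likelihood F-test, adjusted by Benjamini-Hochberg. Hars2 rose with PE in siNeg (log2 fold change 0.32 ± 0.06 SE, adjusted p = 0.00384) and was lower in the libraries labelled siSlc25a26.PE than in siNeg.PE (-0.23 ± 0.08 SE, adjusted p = 0.0418) by the same test, its difference of PE effects being -0.23 ± 0.10 SE, adjusted p = 0.166. That difference passed on log2(FPKM + 1), at -0.32, and on log2(FPKM + 0.1), at -0.34. The call of the difference for Hars was kept without siNeg replicate 3 or siSlc25a26.PE replicate 3, and was lost without each of the other 10 libraries, with values from 0.21 to 0.25. It was also lost without the filter, where the value was 0.24, and on both FPKM scales, where it was 0.12. On those scales Hars was at 0.17 with PE in siSlc25a26. The call of Hars2 under PE was lost in DESeq2 (-0.23), without the filter (-0.23), and without any 1 library (-0.25 to -0.17) but siSlc25a26.PE replicate 3. Whether strand was used in counting is not given in the sources used here, and whether reads near the shared start region of these neighbours are mixed was not tested.

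The stretch between the starts of Hars (minus strand) and Hars2 (plus strand) is shown because both genes share it. It runs at chr18:28672713-28672855 in RefSeq GRCr8, 143 bases on the plus strand, with no letters in capitals since no motif is marked.
Hars-Hars2: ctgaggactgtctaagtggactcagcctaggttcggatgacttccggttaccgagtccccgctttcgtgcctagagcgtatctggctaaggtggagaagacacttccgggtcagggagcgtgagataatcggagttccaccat

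Ratios of cytosolic to mitochondrial FPKM were taken for 16 pairs, with Eprs set against Ears2 and Pars2 and Farsa against Fars2. In siSlc25a26 without PE, 6 ratios lay above all siNeg libraries, 1 (Wars to Wars2) lay below and 9 overlapped, and under PE 7 lay above, 0 below and 9 overlapped. With PE in siNeg 4 lay above, 8 below and 4 overlapped, and with PE in siSlc25a26 7, 3 and 6 did. No share over all genes exists for such pairs, and the pairs named here were chosen after their values were seen. For Hars to Hars2 the ratio was 2.94 ± 0.0790 in siNeg, 2.51 ± 0.0840 in siNeg.PE, 3.02 ± 0.182 in siSlc25a26 and 3.57 ± 0.360 in the libraries labelled siSlc25a26.PE (mean ± SD, n = 3). For Cars to Cars2 it was 2.14 ± 0.131, 2.49 ± 0.200, 3.03 ± 0.165 and 4.81 ± 0.265 in the same order. The Cars to Cars2 ratio was above its siNeg range in all 9 other libraries. For Aars to Aars2 it was 12.7 ± 0.101, 11.7 ± 0.969, 18.4 ± 0.762 and 19.2 ± 0.850. The mean ratio was lower in siSlc25a26 than in siNeg for 8 of 16 pairs, and lower under PE for 4 of 16. Among the 8 were Yars to Yars2 at 9.80 ± 0.613, 6.32 ± 0.587, 8.14 ± 0.972 and 6.03 ± 0.607, and Wars to Wars2 at 9.74 ± 0.599, 10.9 ± 0.611, 8.80 ± 0.344 and 10.4 ± 1.22. Sars to Sars2, another of them, was at 19.6 ± 0.463, 16.0 ± 2.28, 18.5 ± 2.21 and 16.5 ± 0.265. With 3 libraries against 3, an exact permutation test cannot give a p below 0.1, so no p is given.

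The other genes of tRNA charging and translation are given by list. For these counts, the shares of all genes tested that were higher and lower were 25.2% and 24.3% with PE in siNeg, 26.4% and 26.0% with PE in siSlc25a26, 23.3% and 21.7% in siSlc25a26 without PE, 20.1% and 20.1% under PE, and 5.48% and 5.73% in the difference. The medians over all genes lay between -0.0036 and 0.015 in the comparisons of group pairs. Of 11 other charging genes, 2 rose and 1 fell with PE in siNeg, 1 rose and 3 fell with PE in siSlc25a26, 0 rose and 3 fell in siSlc25a26 without PE, and 0 rose and 4 fell under PE, with list medians of 0.042, -0.0041, -0.059 and -0.24 in that order. Gatb, a subunit of the amidotransferase that makes mitochondrial glutaminyl-tRNA, fell with PE in siNeg (-0.21 log2), with PE in siSlc25a26 (-0.55), in siSlc25a26 without PE (-0.31) and under PE (-0.66), and was lower in the difference (-0.37). Tarsl2, a threonyl synthetase paralog, rose with PE (0.50 in siNeg, 0.62 in siSlc25a26), as did Sepsecs, which makes selenocysteinyl-tRNA, in siNeg (0.43). Pstk, the kinase acting before it, fell with PE in siSlc25a26 (-0.70). Aarsd1, an editing enzyme, and Qrsl1, another amidotransferase subunit, fell in siSlc25a26 without PE (-0.42 and -0.36), and Aarsd1 under PE (-0.46).

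Of 12 genes of mitochondrial tRNA processing, 3 rose with PE in siNeg, 2 rose and 3 fell with PE in siSlc25a26, 4 rose and 1 fell in siSlc25a26 without PE, and 5 rose and 2 fell under PE. The share higher with PE in siNeg was thus near the 25.2% of all genes. The list medians were -0.011, 0.11, 0.13 and 0.086 in that order. Trnt1, which adds the CCA end, rose with PE by 0.88 in siNeg and 0.52 in siSlc25a26, in log2. Osgepl1, a tRNA modification enzyme, rose with PE in siNeg (0.65) and fell under PE (-0.66), with a lower difference (-0.58). Gtpbp3, which modifies the wobble base, rose without PE (1.07) and under PE (0.62), fell with PE in siSlc25a26 (-0.36) and was lower in the difference (-0.46), where 0 were higher and 3 lower. Elac2, the nuclease of the tRNA 3′ end, rose without PE (0.65) and under PE (0.73). Trmt10c and Hsd17b10, subunits of the mitochondrial RNase P, had log2 fold changes of 0.36 and -0.35 with PE in siSlc25a26. Hsd17b10 also fell in siSlc25a26 without PE (-0.16) and under PE (-0.44).

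Elongation factors carry charged tRNA to the ribosome and move it along. Of 6 cytosolic factors, 5 fell in siSlc25a26 without PE and 1 did not pass, where 21.7% of all genes tested were lower. In the libraries labelled siSlc25a26.PE 4 were lower than in siNeg.PE and 2 did not pass, where 20.1% of genes were lower. Eef1b2 (-0.85 log2) and Eef1a1 (-0.78) were lowest without PE, and Eef1a1 (-0.66) and Eef2 (-0.48) under PE. With PE in siNeg 1 fell (Eef2, -0.33), and with PE in siSlc25a26 4 rose, led by Eef1b2 (0.50) and Eef1d (0.35). In the difference Eef1b2 was higher (0.42). The list medians were 0.00027, 0.18, -0.69 and -0.42 for PE in siNeg, PE in siSlc25a26, without PE and under PE. Of 4 mitochondrial factors, 2 rose with PE in siNeg and 3 in siSlc25a26, led by Gfm1 (0.74 and 0.79) and Gfm2 (0.52 and 0.51). In siSlc25a26 without PE and under PE 2 fell, Tufm (-0.33 and -0.22) and Gfm1 (-0.23 and -0.19), and the list medians were 0.32, 0.37, -0.22 and -0.10 in the same order.

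Of 10 amino acid transporters, 3 rose and 4 fell with PE in siNeg, where 25.2% and 24.3% of all genes did, led by Slc38a1 (0.55 log2) and Slc7a6 (0.31) upward and Slc3a2 (-0.45) and Slc7a5 (-0.45) downward. The last pair forms the leucine transporter. With PE in siSlc25a26 4 rose and 4 fell, led by Slc38a1 (0.93) and Slc7a1 (0.71) upward and Slc36a1 (-0.40) and Slc7a5 (-0.34) downward. In siSlc25a26 without PE 2 rose and 5 fell, led by Slc7a1 (0.43) and Slc43a1 (0.43) upward and Slc7a6 (-0.49) and Slc43a2 (-0.44) downward. Under PE 3 rose and 3 fell, led by Slc7a1 (0.99) and Slc43a1 (0.60) upward and Slc43a2 (-0.33) and Slc7a5 (-0.32) downward. The list medians were -0.12, 0.046, -0.13 and -0.056 in that order. In the difference Slc7a1 (0.54) and Slc38a1 (0.36) were higher.

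**Figure D5:**
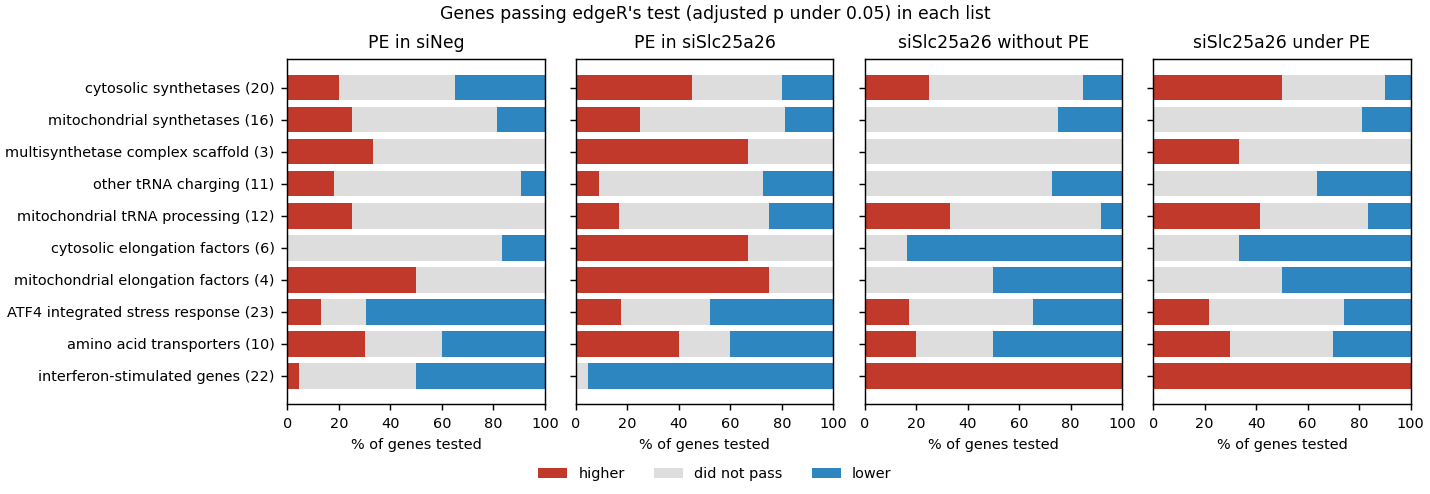
Share of the genes tested in each list that were higher (red), lower (blue) or did not pass (grey) by edgeR's test at adjusted p under 0.05, in 4 comparisons. Under PE 10 of 20 cytosolic and 0 of 16 mitochondrial synthetases are higher, beside 22 of 22 interferon-stimulated genes.

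Markers of other cell types moved with the groups as well. Of 10 fibroblast markers, 2 rose and 5 fell with PE in siNeg, 1 rose and 4 fell with PE in siSlc25a26, 1 rose and 8 fell in siSlc25a26 without PE, and 1 rose and 9 fell under PE, where 24.3%, 26.0%, 21.7% and 20.1% of all genes fell in that order. The list medians were -0.46, -0.23, -0.74 and -0.53. The lowest log2 fold changes were those of Col3a1 (-1.26) and Col1a1 (-0.94) with PE in siNeg, and of Fap (-1.64) and Thy1 (-1.36) without PE. Of 8 leukocyte markers, 0 rose in any comparison of group pairs, and 6 fell with PE in siNeg, 2 with PE in siSlc25a26, 5 in siSlc25a26 without PE and 1 of 7 tested under PE. Their summed level was 128, 133 and 111 CPM in siNeg, 66.0, 70.3 and 61.1 CPM in siNeg.PE, 60.2, 69.8 and 65.0 CPM in siSlc25a26 and 42.2, 50.1 and 46.0 CPM for the libraries labelled siSlc25a26.PE, with the lysozyme gene Lyz2 as the most abundant. Ptprc, which defines leukocytes, had a mean of 0.607 CPM in siNeg. Of 4 smooth muscle markers, 1 rose and 3 fell with PE in siNeg, 1 rose and 1 fell with PE in siSlc25a26, 0 rose and 4 fell without PE, and 1 rose and 2 fell under PE.

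Smooth muscle markers summed to 3028, 2813 and 2839 CPM in siNeg, 1732, 1605 and 1324 CPM in siNeg.PE, 1399, 1308 and 1563 CPM in siSlc25a26 and 1443, 1333 and 1395 CPM for the libraries labelled siSlc25a26.PE, with Acta2 as the most abundant. Endothelial markers summed to 25.3, 27.6 and 26.5 CPM in siNeg, 23.3, 23.7 and 21.9 CPM in siNeg.PE, 25.6, 26.4 and 27.2 CPM in siSlc25a26 and 25.8, 27.6 and 29.3 CPM for the libraries labelled siSlc25a26.PE, with Kdr as the most abundant in siNeg replicate 1 and all siSlc25a26 libraries and Tek in the others, and Emcn, an endothelial sialomucin, was at 0 counts in at least 1 library of each group. Of the endothelial markers tested, 1 rose (Tek, 0.33 log2) and 1 fell (Kdr, -1.08) with PE in siNeg, the same numbers passed with PE in siSlc25a26, 0 passed without PE, and 1 rose under PE. Cardiomyocyte markers had 4 higher and 1 lower with PE in siNeg, 7 and 1 with PE in siSlc25a26, 1 and 3 without PE, and 2 and 3 under PE. Of all genes tested, 25.2% were higher and 24.3% lower with PE in siNeg, and 26.4% and 26.0% with PE in siSlc25a26. The shares were 23.3% and 21.7% without PE, and 20.1% and 20.1% under PE. In the difference, 2 fibroblast, 3 leukocyte and 3 smooth muscle markers were higher and 0 lower, and 1 cardiomyocyte marker was higher and 1 lower. There 5.48% of all genes tested were higher and 5.73% lower. The part of these markers in the synthetase results was not tested.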

How the data were processed

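RNA was extracted with Trizol and sequenced by a commercial provider. Per the submitters' processing notes, HISAT and Bowtie2, with no version, and the genome build Rnor_6.0 were used; the counting program, annotation and strandedness are not given in the sources used here. The authors deposited estimated counts per gene, made from the aligned reads and not scaled by depth, of which 20.8% to 21.9% per library are not whole numbers, and, in a second table, FPKM values that the authors scaled by gene length and library size. The planned design assumed plain counts; the expected counts were rounded to whole numbers.

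Each comparison was fitted on its 6 libraries, and the difference of PE effects on all 12, over all genes with edgeR 4.0.16 in R 4.3.3 (TMM, filterByExpr, quasi-likelihood F-test), with Benjamini-Hochberg adjustment over all genes tested. A gene was called at adjusted p under 0.05, and the fold threshold was 1.5. Standard errors were derived from the F statistic. CPM was scaled by TMM from the deposited counts. The fits were tested on simulated data. Alternatives were DESeq2 size factors, DESeq2 1.42.0, limma-voom (limma 3.58.1), no filter, at least 10 counts in every library, limma on log2(FPKM + 1) and log2(FPKM + 0.1), the replicate block, all 12 libraries in one fit, and leaving out each library. Figures were drawn with matplotlib 3.10.9.

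The members and lists were chosen with earlier results of these data known. Named with every library are the 4 passing members with the largest fitted change in each direction in each comparison of group pairs, each member passing in the difference, Wars, Wars2 and Slc25a26. Members named for a call that other settings add were chosen after their values were seen. Other lists are given by counts with the 2 largest passing changes in each direction. No set was tested, and protein sequences were not used here.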

Additional observations from a re-analysis of the deposited data

Results flagged for a closer look

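The PE effect of Pars2, the mitochondrial prolyl enzyme, differed between the labelled siRNAs by a log2 value of -0.44 (adjusted p = 0.0441, edgeR's quasi-likelihood test of the interaction with Benjamini-Hochberg adjustment), being lower in siSlc25a26 than in siNeg. The PE effect of Hars, the cytosolic histidyl enzyme, differed by 0.23 (adjusted p = 0.0346, same test by edgeR with Benjamini-Hochberg adjustment), being higher there. Both rest on the libraries labelled siSlc25a26.PE. The call of Pars2 was lost without any 1 of 9 libraries, with DESeq2 size factors (-0.42) and without the filter (-0.44). The call of Hars was lost without any 1 of 10 libraries, without the filter (0.24) and on both FPKM scales (0.12).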

How the results depend on the processing

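Of 601 values of the 67 passing calls of members under the alternatives other than leaving out a library, 540 kept the call and 61 lost it, and 4 of those changed sign, which were Gars and Tars2 for PE in siSlc25a26 on the FPKM scales. With a library left out, 320 of 414 kept the call, 94 lost it and 0 changed sign. Effects of members that did not pass in edgeR on the TMM scale passed in 82 values of 37 effects under the other alternatives and in 14 values of 12 effects with a library left out. By comparison, 14 of 18 calls for PE in siNeg, 12 of 20 for PE in siSlc25a26, 8 of 12 without PE, 8 of 15 under PE and 0 of 2 for the difference were kept with each library left out. On log2(FPKM + 1) and log2(FPKM + 0.1) the cytosolic medians were -0.14 and -0.14 for PE in siNeg, -0.10 and -0.10 for PE in siSlc25a26, 0.061 and 0.063 for siSlc25a26 without PE, 0.10 and 0.10 under PE, and 0.021 and 0.021 for the difference. The mitochondrial medians were 0.019 and 0.022, -0.067 and -0.076, -0.12 and -0.13 for PE in siNeg, PE in siSlc25a26 and the difference, and -0.19 under PE on log2(FPKM + 0.1). Members passing in the difference numbered 4 with DESeq2 size factors, 6 in DESeq2, 0 without the filter and 5 on either FPKM scale, against 2. In these settings 4 were higher and 0 lower, 5 and 1, 0 and 0, and 0 and 5, and with the replicate block 3 and 1. Under PE 6 were higher and 8 lower on log2(FPKM + 0.1), against 10 and 5, and with PE in siSlc25a26 5 and 15 on either FPKM scale, against 13 and 7. Past 1.5-fold, 0 members in place of 1 passed for PE in siNeg with DESeq2 size factors, in DESeq2 and on log2(FPKM + 1), 2 in place of 1 for PE in siSlc25a26 on either FPKM scale, and 1 in place of 0 without PE on log2(FPKM + 0.1). Values of Wars and Wars2 that did not pass changed sign. For Wars these were 0.029 for PE in siNeg without siNeg replicate 1 (range with a library left out -0.089 to 0.029), and -0.054 and -0.055 for PE in siSlc25a26 on the FPKM scales. For the difference of Wars2 they were -0.030 and -0.045 on the FPKM scales, -0.023 without siNeg.PE replicate 2, -0.0012 without siSlc25a26.PE replicate 1, -0.042 without siSlc25a26.PE replicate 2 and -0.0042 without siSlc25a26 replicate 3. The cause was not tested. With a library left out, members passing ranged from 14 to 18 for PE in siNeg, 15 to 21 for PE in siSlc25a26, 8 to 13 without PE, 8 to 16 under PE and 0 to 2 for the difference. Cytosolic medians ranged from -0.12 to -0.060, 0.055 to 0.12, -0.02 to 0.02, 0.15 to 0.21 and 0.11 to 0.17 in that order, and mitochondrial medians from 0.06 to 0.11, 0.06 to 0.10, -0.04 to 0.01, -0.18 to -0.07 and -0.092 to 0.034. Correlations of same-numbered deviations ran from -0.13 to 0.16, and not every sample correlated best with its own number. For each number they were above 0 with PE in siNeg (0.059, 0.010 and 0.15) and under PE (0.16, 0.042 and 0.15). In the other group pairs they had both signs, so pairing by number is not settled. With the replicate block 11 members were higher and 13 lower for PE in siNeg, and 11 and 7 for PE in siSlc25a26. They numbered 6 and 7 without PE and 15 and 6 under PE, and 4 passed in the difference. For PE in siNeg 8461 of 13719 genes were called with the block against 6785, and for PE in siSlc25a26 6326 of 13776 against 7219. The counts were 6020 of 13829 against 6221 without PE, 6659 of 13671 against 5488 under PE and 2271 of 14097 against 1581 in the difference. Counting alone gave a standard error of 0.078 log2 for Mars2 with PE in siNeg, beside a fitted one of 0.096. Over the 4 comparisons of group pairs, counting made up a median of 11.4% to 16.0% of the fitted variance of cytosolic members and 32.9% to 39.1% of that of mitochondrial members. It exceeded the rest of the variance in 0 of 20 cytosolic members, and in 3 of 16 mitochondrial members, or 4 under PE. The part of depth and of the number of libraries in the precision was not tested.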
